A study of Mus musculus with 20 samples.

Results

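The interaction between genotype and maturation stage was measured in medullary thymic epithelial cells (mTEC) of the mouse. It is the genotype effect in mTEChi cells (cHyper minus WT) less the same effect in mTEClo cells, on the log2 scale, so that a positive value means a genotype effect that was more positive in mTEChi. Its members were all genes that passed a filter on low counts, 28932 of the 51810 genes in the deposited table. The 12 libraries formed 4 groups of 3, Trp53-WT mTEClo, Trp53-cHyper mTEClo, Trp53-WT mTEChi and Trp53-cHyper mTEChi. Every group came from thymi of mice aged 4 to 5 weeks, was enriched for EpCAM-positive cells after enzymatic digestion and was sorted to 75000 mTEC. The sources used here do not give what the cHyper allele alters, which cells carry it, the strain, the sort gates or any pooling of animals. The comparison addressed whether the response to the Trp53 genotype depended on the stage or, read the other way, whether the step from mTEClo to mTEChi differed between the genotypes.

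Medullary thymic epithelial cells display self-antigens to developing T cells. By convention mTEClo cells hold immature and basal cells together with several specialised cell types, and mTEChi cells hold the mature cells in which the regulator Aire drives expression of many tissue-restricted genes. Epithelial cells of the thymus also respond to type I and type III interferons, which act through transcription factors that include the IRF family on a shared set of antiviral genes. Trp53 (p53) is a transcription factor that induces genes of cell cycle arrest, DNA repair and cell death, and Mdm2 is the ubiquitin ligase that degrades it. The series' title ties p53 repression in thymic epithelium to noise in chromatin accessibility.

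Library totals ran from 22023800 to 47926607 fragments, with at least 42075886 in replicates 1 and 2 and at most 25306137 in replicate 3. Levels are CPM, fragment counts relative to library size with TMM scaling, and the values of a group are listed in the order of replicates 1, 2 and 3. A gene was called when the edgeR quasi-likelihood test gave a Benjamini-Hochberg adjusted p under 0.05 over the 28932 genes. Epithelial identity genes such as Epcam and Krt8 were abundant in all groups, with summed levels of 4502 to 5057 CPM in mTEClo and 2840 to 3299 CPM in mTEChi. Because these are bulk samples, fewer cells of a type and less RNA per cell cannot be told apart. No label states that replicates came from separate animals. In each group the Y-linked gene Ddx3y was at 0 CPM in its lowest library, with medians of 63.5 CPM in WT mTEClo and 71.9 CPM in cHyper mTEClo. The mTEChi medians were 74.4 CPM in WT and 70.1 CPM in cHyper. The libraries of a group thus differed in sex and were not all repeats of the same animals. How many animals each library holds is not given, so the tests reflect only variation among these libraries.

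Trp53 itself (ENSMUSG00000059552, chromosome 11, 69580359 to 69591873, build mm10) showed no called interaction. It stood at 137, 136 and 138 CPM in WT mTEClo and 166, 177 and 154 CPM in cHyper mTEClo, and at 97.97, 99.5 and 107 CPM in WT mTEChi and 135, 129 and 138 CPM in cHyper mTEChi. In both stages all cHyper values exceeded all WT values, and the genotype difference was called in mTEChi (edgeR adjusted p = 0.0200) and not in mTEClo (0.0553). The 2 differences were close (log2 interaction 0.13, SE 0.12, edgeR adjusted p = 0.682). An RNA level cannot show whether the protein is altered, so the genotype labels are unchecked by it.

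The interaction was called for 595 of 28932 genes, or 2.06%. It was higher for 327 genes (1.13%) and lower for 268 (0.926%), with a median log2 interaction of 0.02 over all genes tested. These shares of all genes are the background for the list counts given below. The called genes had a median absolute log2 interaction of 1.26, and 400 of them reached at least 2-fold. With the replicate number as a block, 1186 of the 28932 genes were called, 684 higher and 502 lower, including 592 of the 595. These larger counts are the background for list counts given with the block. Of the 595 genes, 536 were protein coding, or 90.1% against 65.8% of the genes tested that have a biotype.

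Most called interactions lay where the genotypes differed in mTEClo and not detectably in mTEChi. The genotype effect was called for 9.16% of genes in mTEClo (4.53% higher and 4.64% lower in cHyper) and for 1.98% in mTEChi (1.56% higher and 0.418% lower). Among the 327 higher interactions, 229 genes fell in cHyper mTEClo with no call in mTEChi, and 50 rose in cHyper mTEChi with no call in mTEClo. Another 15 fell in both stages, 11 rose in both and 21 were called in neither stage. Among the 268 lower interactions, 236 genes rose in cHyper mTEClo with no call in mTEChi, 11 rose in both stages, 11 fell in cHyper mTEChi alone and 7 were called in neither. A further 4 genes were called in opposite directions in the 2 stages. These counts use the same libraries as the interaction and describe it. The standard error of the genotype effect was similar in the stages, with a median over all genes of 0.21 in mTEClo and 0.22 in mTEChi.

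**Figure D1:**
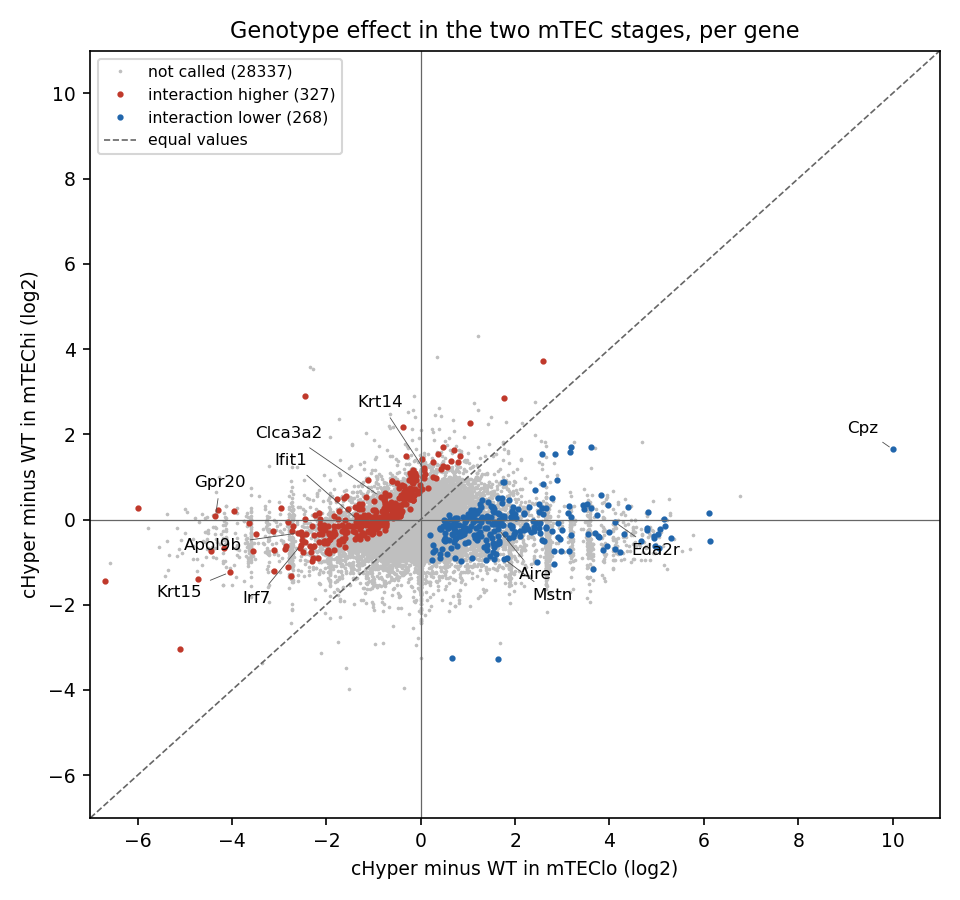
Genotype effect per gene in mTEClo (horizontal axis, log2 of cHyper against WT) and in mTEChi (vertical axis, same unit). Grey points are the 28337 genes without a called interaction, red points the 327 higher and blue points the 268 lower interactions, and the dashed line marks equal effects. The coloured points spread far along the horizontal axis and little along the vertical one.

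Interferon-stimulated genes were the list with the most called interactions. Of 29 members tested, 17 were higher and 0 lower, against 1.13% and 0.926% of all genes. The median log2 interaction was 1.03, and the sign was positive in 29 of 29. The list was chosen with earlier results of these data known. Ifi27, an interferon-inducible gene not on it, had a called lower interaction (log2 -0.91), with a genotype difference called in mTEClo only. In cHyper mTEClo 28 of the 29 fell (median log2 -1.22), while in cHyper mTEChi 2 fell, Oas3 and Mx1 (median log2 -0.33). The called members were Irf7, Stat2, Usp18, Isg15, Zbp1, Mx1, Oas1a, Oas2, Oas3, Oasl1, Oasl2, Ifit1, Ifit2, Ifit3, Ifit3b, Rsad2 and Trim30a. All of these except Rsad2 stayed called whichever library was left out. For Rsad2 the call ended when any one of some libraries, given here by group and replicate number, was left out, namely cHyper mTEClo 1 or 2, WT mTEChi 1, 2 or 3, or cHyper mTEChi 1 or 2 (edgeR adjusted p = 0.0627 to 0.0965).

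Irf7 (ENSMUSG00000025498, chromosome 7, 141262706 to 141266481) encodes the transcription factor that amplifies the interferon response. It stood at 474, 609.8 and 516 CPM in WT mTEClo and 80.5, 112 and 82.7 CPM in cHyper mTEClo. In mTEChi the values were 65.2, 70.04 and 53.1 CPM in WT and 36.6, 43.1 and 44.99 CPM in cHyper. The groups did not overlap in either stage, but Irf7 was 5.82-fold lower in cHyper mTEClo and 1.51-fold lower in cHyper mTEChi, where the difference was not called (edgeR adjusted p = 0.0553). The log2 interaction was 1.94 (SE 0.21, edgeR adjusted p = 0.000392).

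Effector genes of the antiviral state also fell in cHyper mTEClo. Ifit1, which binds foreign RNA caps, had 236, 300.2 and 261 CPM in WT mTEClo and 93.04, 105 and 116 CPM in cHyper mTEClo. The mTEChi values were 94.2, 106 and 103 CPM in WT and 91.6, 95.4 and 116 CPM in cHyper. The mTEClo groups stood apart by 2.54-fold, and the mTEChi groups overlapped (log2 interaction 1.34, SE 0.17, edgeR adjusted p = 0.000999). Oas2, an oligoadenylate synthetase that activates RNase L, had 52.2, 67.2 and 56.8 CPM in WT mTEClo and 5.19, 7.82 and 7.45 CPM in cHyper mTEClo. Its mTEChi values were 7.41, 6.78 and 5.02 CPM in WT and 3.75, 3.11 and 5.06 CPM in cHyper, and it had the largest log2 interaction of the list, 2.39 (SE 0.29, edgeR adjusted p = 0.000799). Oasl1 stood at 28.1, 43.7 and 41.2 CPM in WT mTEClo against 6.31, 7.59 and 6.60 CPM in cHyper mTEClo, and at 48.99, 61.2 and 56.8 against 37.2, 37.96 and 40.7 CPM in mTEChi (log2 interaction 1.93, SE 0.21, edgeR adjusted p = 0.000403). Among the others, the ubiquitin-like modifier Isg15 fell from 211, 346 and 238 CPM in WT mTEClo to 57.99, 92.2 and 72.9 CPM in cHyper mTEClo, with 30.3, 41.7 and 31.9 against 25.1, 29.8 and 28.6 CPM in mTEChi (log2 interaction 1.52). The GTPase Mx1, an inhibitor of influenza virus, fell in both stages. Its levels went from 82.7, 120.1 and 79.4 to 13.9, 20.3 and 16.1 CPM in mTEClo and from 49.2, 48.9 and 40.4 to 26.1, 29.3 and 25.8 CPM in mTEChi (log2 interaction 1.72, SE 0.23). Members without a called interaction included Irf9 and Cmpk2, with log2 interactions of 0.41 and 0.20.

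The interferon-inducible GTPases, which attack the vacuoles of intracellular pathogens, showed smaller interactions. Of 14 tested, 6 were higher (Gbp3, Gbp5, Igtp, Irgm1, Tgtp1 and Tgtp2) and 0 lower, against 1.13% and 0.926% of all genes. The median was 0.59. With the replicate block 10 were called (Gbp6, Gbp7, Gbp9 and Iigp1 in addition), against 1186 of all 28932 genes. In cHyper mTEClo 13 of the 14 fell and in cHyper mTEChi 0 did. Gbp3 stood at 278, 345 and 299 CPM in WT mTEClo and 156, 172 and 149.8 CPM in cHyper mTEClo. Its mTEChi levels were 63.1, 60.4 and 42.8 CPM in WT and 57.1, 58.5 and 53.7 CPM in cHyper, overlapping groups (log2 interaction 0.98, SE 0.19, edgeR adjusted p = 0.0143). Igtp had 158, 186 and 152 against 93.9, 108 and 101 CPM in mTEClo and 111, 114 and 122 against 119.95, 119 and 116 CPM in mTEChi (log2 interaction 0.74, SE 0.14, edgeR adjusted p = 0.0107). Tgtp1 and Tgtp2 are near-identical copies, and their log2 interactions of 0.70 and 0.69 may share reads. The call of Tgtp1 ended without cHyper mTEClo 2 (edgeR adjusted p = 0.0528), that of Gbp5 without WT mTEClo 1 or 2, cHyper mTEClo 1 or 3, WT mTEChi 1, 2 or 3, or cHyper mTEChi 1 or 2 (0.0519 to 0.0796) and that of Irgm1 without WT mTEClo 1 or 2, cHyper mTEClo 1 or 2, WT mTEChi 2 or 3, or cHyper mTEChi 1 or 3 (0.0511 to 0.0727).

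Promoter sequences of the called interferon genes show where the shared response element lies. The interferon-stimulated response element is the promoter sequence through which IRF factors act on interferon-induced genes. Its core was searched as TTTCNNTTTC, or GAAANNGAAA on the other strand, in windows of 250 bases before to 50 after each RefSeq start site (build GRCm38.p6), and 3.99% of the 27025 genes with a window held it. The stretches below are read 5′ to 3′ on the gene's strand, with the core matches in capitals, and each match lies before the start site. They cover chr19:34640765-34640833 (plus strand), chr4:156200855-156200916 (minus), chr3:142559979-142560034 (plus), chr15:77729015-77729070 (plus), chr1:173491329-173491378 (minus) and chr1:173599316-173599365 (minus), and were chosen as examples of the gene groups described here.
Ifit1: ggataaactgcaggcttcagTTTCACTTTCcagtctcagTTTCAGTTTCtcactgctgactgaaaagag
Isg15: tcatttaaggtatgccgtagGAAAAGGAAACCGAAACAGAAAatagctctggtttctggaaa
Gbp3: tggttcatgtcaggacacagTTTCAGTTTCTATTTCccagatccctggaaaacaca
Apol9b: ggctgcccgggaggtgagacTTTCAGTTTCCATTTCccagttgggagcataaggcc
Ifi206: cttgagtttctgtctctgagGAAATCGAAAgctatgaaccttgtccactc
Ifi213: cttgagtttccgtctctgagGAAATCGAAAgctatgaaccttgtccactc
Of the 20 interferon-stimulated genes that matched an entry by symbol, 12 held the core, as did 9 of 9 matched GTPases. With only 20 of 29 and 9 of 14 members matched, these shares are void as a check of the lists. Of the immediate-early genes 21 of 26 matched and 2 held it (9.52%).

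The PYHIN family, DNA-binding proteins encoded in a cluster on chromosome 1 and inducible by interferon, held some of the largest positive interactions. This family was assembled after its values had been seen. The set held 12 tested members and left out Ifi202b, which was also called higher (log2 interaction 1.29). Of the 12, 8 were higher (Ifi203, Ifi204, Ifi205, Ifi206, Ifi208, Ifi211, Ifi213 and Mndal) and 0 lower, against 1.13% and 0.926% of all genes. The median of the 12 was 1.35. In cHyper mTEClo 9 fell and 1 rose, Aim2, the cytosolic DNA sensor of the inflammasome, whose log2 interaction was -0.37 (edgeR adjusted p = 0.383). The response element core stood in 9 of the 11 genes of this set with a window (81.8%).

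Ifi213 (ENSMUSG00000073491, chromosome 1, 173566283 to 173599274) had 20.5, 22.96 and 22.3 CPM in WT mTEClo and 0.571, 1.20 and 0.692 CPM in cHyper mTEClo. In mTEChi the levels were 2.12, 2.06 and 1.37 CPM in WT and 0.549, 0.992 and 0.535 CPM in cHyper. It fell 26.3-fold in mTEClo and 2.65-fold in mTEChi, with no overlap in either stage (log2 interaction 3.31, SE 0.41, edgeR adjusted p = 0.000941). Ifi206, whose printed stretch resembles that of Ifi213, had 13.6, 13.8 and 15.5 against 0.891, 1.54 and 1.43 CPM in mTEClo and 2.21, 2.58 and 2.20 against 1.997, 1.61 and 1.93 CPM in mTEChi (log2 interaction 3.14, SE 0.30, edgeR adjusted p = 0.000112). Ifi208 had 3.26, 3.96 and 4.27 against 0.388, 0.368 and 0.163 CPM in mTEClo and 1.63, 1.93 and 0.974 against 0.658, 1.06 and 1.07 CPM in mTEChi (log2 interaction 2.82, SE 0.48, edgeR adjusted p = 0.00694). The more abundantly counted Ifi204 had 144, 183 and 139 CPM in WT mTEClo and 20.3, 21.7 and 21.1 CPM in cHyper mTEClo, with 46.04, 52.9 and 30.8 against 25.8, 31.9 and 22.8 CPM in mTEChi (log2 interaction 2.20, SE 0.25). These genes are close copies of each other, so fragments may be divided among them in a way the files do not show.

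Apol9b, an apolipoprotein L gene induced by interferon, had 34.7, 41.2 and 44.4 CPM in WT mTEClo and 5.85, 7.49 and 6.47 CPM in cHyper mTEClo. The levels in mTEChi were 10.9, 11.6 and 12.5 CPM in WT and 8.87, 8.30 and 11.02 CPM in cHyper. It fell 6.06-fold in mTEClo, while the mTEChi groups overlapped narrowly and were not called apart (log2 interaction 2.28, SE 0.21, edgeR adjusted p = 7.29e-05). Its near copy Apol9a was also called higher, so reads may be divided between them.

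Among interferon ligands and receptors 1 of 10 was called, or 3 with the replicate block, which added Ifnar2 (log2 interaction 0.54) and Ifngr2 (-0.42). The called gene was Ifnlr1, the specific chain of the type III interferon receptor. It stood at 54.3, 45.6 and 57.8 CPM in WT mTEClo and 15.3, 12.8 and 12.8 CPM in cHyper mTEClo, and at 5.09, 6.06 and 4.58 against 2.83, 3.14 and 3.29 CPM in mTEChi. The fall was 3.85-fold in mTEClo and 1.71-fold in mTEChi, both called, and the interaction measured their difference (log2 interaction 1.17, SE 0.20, edgeR adjusted p = 0.00739). Of 14 genes of MHC class I presentation and the immunoproteasome 0 were called by edgeR, with 7 at an unadjusted p under 0.05, 1 called by DESeq2 and 1 by limma-voom. With the replicate block 4 were called, against 1186 of all 28932 genes. These were Nlrc5, Psmb8, Psmb9 and H2-T23, all with positive values, between 0.52 and 0.68 in that fit. Of 13 H2-T and H2-Q genes, 2 were called higher by edgeR without the block and 0 lower, against 1.13% and 0.926% of all genes. They were H2-T22 (0.86) and H2-T10 (1.14), which are not among the 14.

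Of 13 thymic chemokines, which attract thymocytes and other cells to the medulla, 2 were called higher, Cxcl10 and Ccl21a (15.4% against 1.13% of all genes). With the replicate block 4 were called, adding Cxcl11 and Ccl5, against 1186 of all 28932 genes. Cxcl10, a ligand of CXCR3 induced by interferon, had 569, 718 and 425 CPM in WT mTEClo and 181, 184 and 202 CPM in cHyper mTEClo. Its mTEChi levels were 457, 522 and 477 CPM in WT and 437, 523 and 493 CPM in cHyper. The gene fell 3.02-fold in mTEClo and the mTEChi groups overlapped fully (log2 interaction 1.59, SE 0.22, edgeR adjusted p = 0.00144).

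**Figure D2:**
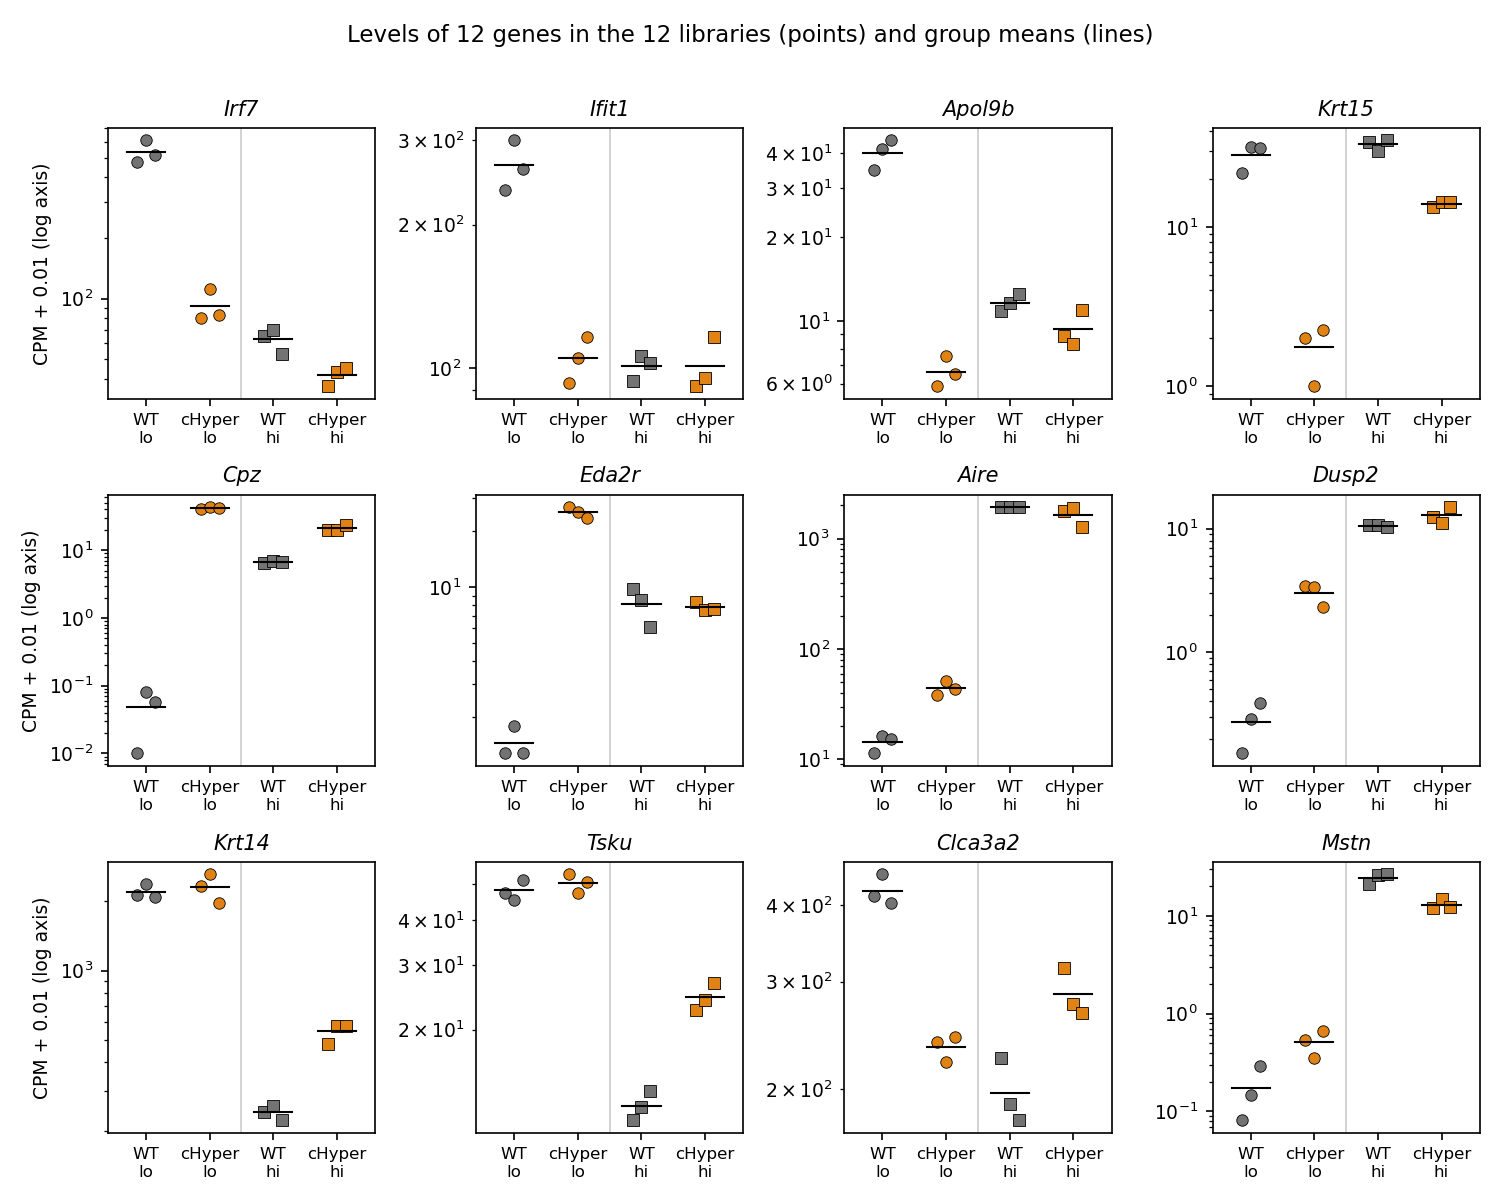
Levels of 12 genes in each library, as CPM plus 0.01 on a log axis. Circles are mTEClo and squares mTEChi, grey is WT and orange cHyper, and lines mark group means. Irf7, Ifit1 and Apol9b drop in cHyper mTEClo, Cpz, Eda2r, Aire and Dusp2 are raised there, Krt14 and Tsku are raised in cHyper mTEChi, and Clca3a2 and Mstn move in opposite directions in the 2 stages.

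Immediate-early genes, which are induced within minutes by growth factors and stress, also had mostly positive interactions. Of 26 tested, 5 were higher (Atf3, Dusp1, Nr4a1, Egr2 and Zfp36) and 1 lower (Dusp2), against 1.13% and 0.926% of all genes. The median of the list was 0.45. In cHyper mTEClo 16 fell and 1 rose, and in cHyper mTEChi 4 fell. The stress regulator Atf3 had 223, 322 and 216 CPM in WT mTEClo and 90.03, 97.8 and 101 CPM in cHyper mTEClo. The mTEChi libraries held 40.8, 44.4 and 42.1 CPM in WT and 29.4, 36.2 and 38.04 CPM in cHyper, lower in every cHyper library but not called (log2 interaction 1.10, SE 0.20, edgeR adjusted p = 0.0109). The phosphatase gene Dusp1 had 225, 312 and 225 against 77.9, 92.3 and 81.8 CPM in mTEClo and 86.8, 80.7 and 73.4 against 48.2, 49.01 and 56.1 CPM in mTEChi, a called fall in both stages (log2 interaction 0.94, SE 0.18, edgeR adjusted p = 0.0159). The nuclear receptor Nr4a1 had 27.05, 25.7 and 27.5 against 10.4, 8.81 and 12.5 CPM in mTEClo and 16.2, 15.96 and 16.8 against 11.3, 12.7 and 12.8 CPM in mTEChi (log2 interaction 0.93, SE 0.18, edgeR adjusted p = 0.0162). The calls of Egr2 and Zfp36 were near the threshold. That of Egr2 ended without WT mTEClo 1 or 3, cHyper mTEClo 1 or 2, WT mTEChi 2 or 3, or cHyper mTEChi 1, 2 or 3 (edgeR adjusted p = 0.0586 to 0.0967), and that of Zfp36 ended without any one library except WT mTEClo 3 (0.0620 to 0.109).

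The exception in this list was Dusp2, a phosphatase of activated lymphocytes that Trp53 can induce. It had 0.142, 0.278 and 0.375 CPM in WT mTEClo and 3.43, 3.36 and 2.32 CPM in cHyper mTEClo, a 12.2-fold rise. In mTEChi it had 10.7, 10.8 and 10.2 CPM in WT and 12.4, 11.2 and 14.9 CPM in cHyper, which were not called apart (log2 interaction -3.34, SE 0.35, edgeR adjusted p = 0.000329). Of 12 heat shock chaperones 1 was called, the small chaperone Hspb1. It had 104, 114 and 133 CPM in WT mTEClo and 42.1, 29.9 and 38.2 CPM in cHyper mTEClo, and 50.3, 48.8 and 52.9 against 48.2, 38.9 and 51.04 CPM in mTEChi (log2 interaction 1.53, SE 0.19, edgeR adjusted p = 0.000999). The mTEClo groups stood apart and the mTEChi groups overlapped.

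Genes of mature mTEC were largely without a called interaction, except Aire. Of 9 regulators and costimulatory genes 1 was lower, with a list median of -0.23, and Fezf2, the other regulator of tissue-restricted antigens, had a log2 interaction of 0.10 (edgeR adjusted p = 0.906). Aire (ENSMUSG00000000731, chromosome 10, 78030022 to 78043610) had 11.3, 16.2 and 15.4 CPM in WT mTEClo and 38.6, 51.4 and 43.6 CPM in cHyper mTEClo, a 3.12-fold rise. The mTEChi values were 1918, 1923 and 1918 CPM in WT and 1770.0000000, 1885 and 1281 CPM in cHyper, where every cHyper library lay below WT, replicate 3 lowest, and the difference was not called (edgeR adjusted p = 0.548). The log2 interaction was -1.87 (SE 0.23, edgeR adjusted p = 0.000941), and even in cHyper the mTEClo level stayed far below that of mTEChi. Among 11 genes of MHC class II presentation, H2-DMb2 was lower (log2 interaction -0.62), or 2 genes with the replicate block, which added Ciita (-0.54). H2-Eb2, a class II gene not among the 11, was also called lower (-1.02). The call of H2-DMb2 ended without WT mTEClo 2 or 3, cHyper mTEClo 1 or 2, WT mTEChi 2 or 3, or cHyper mTEChi 1, 2 or 3 (edgeR adjusted p = 0.0635 to 0.0768).

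Antigens that depend on Aire had negative interactions without passing the test. Of 6 such antigens 0 were called by edgeR, with 1 at an unadjusted p under 0.05, 1 called by DESeq2 and 0 by limma-voom. Their median log2 interaction was -0.96 and 6 of 6 were negative, and with the replicate block Pcp4 was called (-2.01 in the unblocked fit). Some of these values rested on few fragments in mTEClo. Mup4 was at 0 CPM in every WT mTEClo library and had a median of 0 and a maximum of 0.0228 CPM in cHyper mTEClo. Pcp4 was at 0.118 to 0.141 CPM in WT mTEClo. Milk protein genes had a median of -0.73, with 1 of 7 called (14.3% against 2.06% of all genes), the casein Csn1s2a. Csn1s2a had 0.0236, 0 and 0 CPM in WT mTEClo and 0.137, 0.276 and 0.163 CPM in cHyper mTEClo, which is 1 against 22 fragments and a ratio of 21.0 (95% counting interval 3.40 to 868). In mTEChi the levels were 17.6, 20.3 and 23.3 CPM in WT and 28.2, 19.9 and 29.9 CPM in cHyper. As a difference in CPM its sign is the reverse of the log2 interaction of -3.63, since the mTEChi gap of a few CPM is larger than that in mTEClo. The call ended without WT mTEClo 1, 2 or 3, cHyper mTEClo 2 or 3, WT mTEChi 2 or 3, or cHyper mTEChi 1 or 3 (edgeR adjusted p = 0.0516 to 0.127).

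Basal and immature mTEC genes also had positive interactions. Of 13 tested 5 were higher (Krt15, Ly6a, Krt14, Krt5 and Ccl21a) and 0 lower, against 1.13% and 0.926% of all genes. The median was 0.63 and 13 of 13 were positive. With the replicate block 8 were called, adding the laminin and integrin genes Lamb3, Lama3 and Itgb4, against 1186 of all 28932 genes. In cHyper mTEChi 6 rose and 1 fell, and in cHyper mTEClo 1 rose and 3 fell. Krt14, a keratin of basal epithelium, had 2139.9, 2389.5 and 2084 CPM in WT mTEClo and 2347, 2626 and 1978 CPM in cHyper mTEClo, overlapping groups. The levels in mTEChi were 243, 258 and 223 CPM in WT and 479, 577 and 574 CPM in cHyper, a 2.25-fold rise with no overlap (log2 interaction 1.10, SE 0.18, edgeR adjusted p = 0.00569). Its partner keratin Krt5 had 4974, 5842 and 6906 against 4829.9, 5486 and 5372 CPM in mTEClo and 693, 781 and 567 against 1078, 1239 and 1691 CPM in mTEChi (log2 interaction 1.15, SE 0.25, edgeR adjusted p = 0.0313). The chemokine Ccl21a, a ligand of CCR7 with near-identical copies in the genome, had 6236, 6913 and 8114 against 6079, 6493 and 6190.4 CPM in mTEClo. The mTEChi libraries held 342, 399 and 328 CPM in WT and 517, 668 and 1012 CPM in cHyper (log2 interaction 1.22, SE 0.28, edgeR adjusted p = 0.0379). For Krt5 and Ccl21a the mTEClo groups overlapped and the mTEChi groups did not. The call of Krt5 ended without cHyper mTEClo 1 or 2, WT mTEChi 1 or 3, or cHyper mTEChi 2 or 3 (edgeR adjusted p = 0.0544 to 0.0639) and that of Ccl21a without WT mTEClo 3, cHyper mTEClo 1, 2 or 3, WT mTEChi 1, 2 or 3, or cHyper mTEChi 2 or 3 (0.0508 to 0.0872).

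The other basal genes called differed in the mTEClo groups. Ly6a (Sca-1), a surface protein of progenitors that interferon also induces, had 498, 544 and 528 CPM in WT mTEClo and 262, 304 and 229 CPM in cHyper mTEClo. In mTEChi it had 128, 136 and 120.1 CPM in WT and 178, 146 and 196 CPM in cHyper, higher in every library without passing the test (log2 interaction 1.42, SE 0.18, edgeR adjusted p = 0.000941). Krt15 (ENSMUSG00000054146, chromosome 11, 100131758 to 100135928), a keratin of basal progenitors, had 21.8, 31.8 and 31.5 CPM in WT mTEClo and 2.01, 0.989 and 2.24 CPM in cHyper mTEClo, a 16.6-fold fall. The mTEChi values were 34.001, 29.96 and 34.9 CPM in WT and 13.2, 14.3 and 14.4 CPM in cHyper, a 2.36-fold fall (log2 interaction 2.81, SE 0.31, edgeR adjusted p = 0.000392).

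Tsku, Ifitm3 and Mgst1 also had a called genotype difference in mTEChi and none in mTEClo. Tsku, a secreted leucine-rich repeat protein, had 47.4, 45.4 and 51.6 CPM in WT mTEClo and 53.3, 47.3 and 50.7 CPM in cHyper mTEClo, with 11.3, 12.3 and 13.6 against 22.6, 24.1 and 26.8 CPM in mTEChi. The mTEClo groups overlapped and the mTEChi groups stood apart by 1.98-fold (log2 interaction 0.92, SE 0.15, edgeR adjusted p = 0.00534). The interferon-inducible membrane protein Ifitm3, which blocks viral entry, had 1807, 1898 and 2371 against 1552, 1613 and 1627 CPM in mTEClo and 344, 370.1 and 315 against 533, 544 and 626 CPM in mTEChi (log2 interaction 1.07, SE 0.17, edgeR adjusted p = 0.00525). In that gene the call in mTEChi was a 1.65-fold rise, unlike the falls of the interferon-stimulated list in mTEClo. The microsomal glutathione transferase Mgst1 had 46.1, 50.6 and 44.1 against 36.4, 41.9 and 41.2 CPM in mTEClo and 20.5, 22.1 and 18.3 against 32.2, 32.03 and 31.4 CPM in mTEChi (log2 interaction 0.89, SE 0.14, edgeR adjusted p = 0.00498). Adam19, a membrane metalloprotease, was the example in the other direction. It had 49.1, 53.1 and 49.1 against 59.04, 68.05 and 58.7 CPM in mTEClo and 125, 147 and 142 against 69.5, 97.8 and 84.3 CPM in mTEChi, a 1.65-fold fall in cHyper mTEChi (log2 interaction -1.02, SE 0.17, edgeR adjusted p = 0.00597). For Ifitm3, Mgst1 and Adam19 the mTEClo groups did not overlap either, without passing the test.

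Cpz (ENSMUSG00000036596, chromosome 5, 35502218 to 35525698) had the largest interaction among the genes the naming rule chose. It encodes a secreted carboxypeptidase that binds Wnt proteins. In WT mTEClo it had 0, 0.0694 and 0.0469 CPM, or 4 fragments in the 3 libraries together, and in cHyper mTEClo 40.4, 42.9 and 42.4 CPM, or 4674 fragments. In mTEChi the levels were 6.47, 6.84 and 6.75 CPM in WT and 19.6, 19.97 and 23.4 CPM in cHyper, a 3.13-fold rise. The gene was thus nearly undetected only in WT mTEClo, and in cHyper its level was higher in mTEClo than in mTEChi (log2 interaction -8.36, SE 0.34, edgeR adjusted p = 1.39e-08). Other genes that rose in both stages, but more in mTEClo, were the G protein regulator Rgs14, the lysophospholipid receptor gene Gpr55 and Samd12. Rgs14 had 18.9, 15.7 and 15.7 against 130.2, 128 and 102 CPM in mTEClo and 26.7, 29.3 and 33.1 against 81.4, 96.2 and 82.7 CPM in mTEChi (log2 interaction -1.29, SE 0.18, edgeR adjusted p = 0.00144). Gpr55 had 2.57, 3.31 and 2.06 against 16.2, 17.5 and 15.2 CPM in mTEClo and 9.53, 13.3 and 11.04 against 21.6, 17.5 and 21.6 CPM in mTEChi (log2 interaction -1.76, SE 0.24, edgeR adjusted p = 0.00167). For Samd12 the values were 2.9999, 2.71 and 3.71 against 21.4, 19.3 and 28.5 CPM in mTEClo and 21.8, 15.9 and 13.7 against 31.96, 28.6 and 37.9 CPM in mTEChi (log2 interaction -1.96, SE 0.28, edgeR adjusted p = 0.00184). None of these groups overlapped within a stage, which is not further evidence, since the genes were picked for calls in both stages.

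Trp53 target genes had called interactions in both directions. Of 41 tested 1 was higher (Btg2) and 2 lower (Eda2r and Zmat3), or 7.32% against 2.06% of all genes, with a median of -0.08. With the replicate block 8 were called, against 1186 of all 28932 genes. The block added Ercc5 (0.49 in that fit) and, with negative values, Aen, Tnfrsf10b, Ccng1 and Dcxr. The genotype effects were 17 higher and 4 lower in mTEClo, and 12 higher and 1 lower in mTEChi. Eda2r (ENSMUSG00000034457, chromosome X, 97333840 to 97377216), a death receptor of the TNF receptor family, had 1.28, 1.78 and 1.27 CPM in WT mTEClo and 26.9, 25.4 and 23.7 CPM in cHyper mTEClo. The levels in mTEChi were 9.78, 8.53 and 6.10 CPM in WT and 8.32, 7.54 and 7.65 CPM in cHyper, overlapping groups (log2 interaction -4.17, SE 0.26, edgeR adjusted p = 2.44e-06). Zmat3, an RNA-binding regulator of splicing, had 41.1, 40.3 and 37.8 CPM in WT mTEClo and 92.8, 103 and 87.95 CPM in cHyper mTEClo, with 84.2, 81.9 and 71.98 against 106, 99.5 and 102 CPM in mTEChi. It was higher in every cHyper library of both stages, by 2.38-fold in mTEClo and 1.29-fold in mTEChi, where it was not called (log2 interaction -0.89, SE 0.13, edgeR adjusted p = 0.00260).

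The classical targets Cdkn1a and Mdm2 had no called interaction. Cdkn1a, which encodes the cell cycle inhibitor p21, had 48.7, 66.9 and 54.7 against 32.1, 28.5 and 31.7 CPM in mTEClo and 162, 182 and 152 against 109.6, 92.5 and 96.3 CPM in mTEChi. It fell by like factors in both stages, 1.85-fold and 1.66-fold (log2 interaction 0.15, SE 0.17, edgeR adjusted p = 0.772). Mdm2 had 69.97, 68.3 and 68.96 against 78.2, 66.8 and 76.1 CPM in mTEClo and 139, 130.1 and 122 against 115, 107 and 107 CPM in mTEChi (log2 interaction -0.34, SE 0.13, edgeR adjusted p = 0.204). The antiproliferative gene Btg2 had 230.4, 213 and 190.0000000 against 120.3, 105 and 109 CPM in mTEClo and 91.7, 73.8 and 63.9 against 74.9, 61.2 and 81.4 CPM in mTEChi (log2 interaction 0.84, SE 0.19, edgeR adjusted p = 0.0388). Its call ended without WT mTEClo 1 or 2, cHyper mTEClo 2 or 3, WT mTEChi 2 or 3, or cHyper mTEChi 1 or 3 (edgeR adjusted p = 0.0548 to 0.0914). Of 9 genes for Trp53 and its regulators 0 were called by edgeR, against 1 by DESeq2 and 0 by limma-voom, while 2 had an unadjusted p under 0.05, and the replicate block called Rchy1, a ubiquitin ligase (0.51).

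Several genes with lower interactions are also expressed by lymphocytes or other cells that a sort can carry. Itm2a, a membrane protein of thymocytes and mesenchyme, had 1.20, 0.972 and 1.13 CPM in WT mTEClo and 9.32, 9.82 and 10.2 CPM in cHyper mTEClo, with 8.09, 10.8 and 9.34 against 12.4, 12.1 and 10.9 CPM in mTEChi (log2 interaction -2.83, SE 0.22, edgeR adjusted p = 3.69e-05). The 14 thymocyte markers summed to 60.0 to 83.7 CPM in WT mTEClo and 91.2 to 100.005 CPM in cHyper mTEClo. In mTEChi they summed to 95.0 to 104 CPM in WT and 109 to 132 CPM in cHyper, and no marker was at 0 in a whole group. The higher sum in cHyper mTEClo lay outside the WT range, though 0 of the 14 markers had a called genotype difference there. The part of thymocytes in the values of Itm2a and Dusp2 was not tested. Of these markers 0 had a called interaction by edgeR, DESeq2 or limma-voom, 2 had an unadjusted p under 0.05 and the median was -0.56. The collagen gene Col3a1, on the fibroblast list, had 25.8, 25.5 and 20.6 CPM in WT mTEClo and 61.2, 100.005 and 44.1 CPM in cHyper mTEClo, with 17.02, 12.7 and 16.2 against 12.3, 11.8 and 9.87 CPM in mTEChi (log2 interaction -1.94, SE 0.33, edgeR adjusted p = 0.00660). The 8 fibroblast markers summed to 151 to 173 CPM in WT mTEClo and 164 to 230.0 CPM in cHyper mTEClo, and to 170.3 to 265 CPM in WT mTEChi and 162 to 169.7 CPM in cHyper mTEChi. Of these 8 genes Col3a1 was the one with a called interaction, and Dpt was added by the replicate block (-2.20). The list was mixed, with 4 positive and 4 negative interactions. In cHyper mTEClo 2 of its genes rose and 1 fell, with a median log2 genotype effect of -0.31.

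Many lower interactions rested on genes with few fragments in mTEClo. Of the 268 lower genes 119 had a mean under 1 CPM in WT mTEClo, against 4 of the 327 higher genes, and 14 had 0 fragments there. Astl, an oocyte protease, had 0.0472, 0.0463 and 0 CPM in WT mTEClo and 1.21, 1.66 and 1.06 CPM in cHyper mTEClo, or 4 against 151 fragments. The mTEChi libraries held 6.22, 6.17 and 6.31 CPM in WT and 4.85, 5.03 and 4.98 CPM in cHyper, lower in every cHyper library but not called (log2 interaction -5.37, SE 0.46, edgeR adjusted p = 6.79e-05). Tmem132b had 0.378, 0.440 and 0.610 against 3.31, 4.32 and 3.22 CPM in mTEClo and 14.3, 9.27 and 10.8 against 7.99, 6.46 and 6.05 CPM in mTEChi (log2 interaction -3.72, SE 0.33, edgeR adjusted p = 7.29e-05). Foxp2, a transcription factor of neurons, had 0.236, 0.0926 and 0.422 against 1.74, 0.805 and 1.18 CPM in mTEClo and 5.71, 4.87 and 7.65 against 3.01, 3.57 and 2.47 CPM in mTEChi (log2 interaction -3.46, SE 0.54, edgeR adjusted p = 0.00382). Tnfaip6, a secreted hyaluronan-binding protein, counted 4 fragments in WT mTEClo against 37 for cHyper, with 11.1, 13.4 and 15.6 against 11.8, 11.6 and 10.04 CPM in mTEChi (log2 interaction -3.25, SE 0.57, edgeR adjusted p = 0.00821).

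For the remaining genes of this kind the mTEClo values were close to the detection limit. Hbb-y (embryonic globin), Mroh7 and Tectb (a protein of the tectorial membrane) counted 0 fragments in WT mTEClo, against 25, 14 and 13 for cHyper. Relative to 3 fragments per group as the floor, they were at least 7.96-fold, 4.46-fold and 4.14-fold higher, and their fitted interactions are no bound. In mTEChi Hbb-y had 8.66, 10.7 and 11.9 CPM in WT and 9.53, 12.9 and 12.3 CPM in cHyper. The 6 erythroid markers summed to 12.6 to 20.7 CPM in WT mTEClo and 4.40 to 9.72 CPM in cHyper mTEClo. Taken singly, 2 of the 6 had a called fall there and 0 a called rise. Hba-a1 overlapped between the mTEClo groups, with medians of 0.543 CPM in WT and 0.855 CPM in cHyper. The part of erythroid cells in the values of Hbb-y was not tested. Tectb had 12.1, 12.3 and 14.1 CPM in WT mTEChi and 13.3, 10.7 and 10.2 CPM in cHyper mTEChi, and Mroh7 had 5.77, 4.59 and 5.95 against 4.26, 3.90 and 3.99 CPM. Lrrc55 had 2 and 28 fragments in WT and cHyper mTEClo, a ratio of 13.4 (95% counting interval 3.37 to 116). Cyp19a1, which encodes aromatase, had 1 and 26, a ratio of 24.8 (4.08 to 1019), and 4.29, 3.94 and 3.54 against 1.98, 2.56 and 2.43 CPM in mTEChi. All 5 interactions were called, and each of the 3 cHyper mTEClo libraries had fragments of every one of these genes. These intervals cover counting error only.

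Other large positive interactions belonged to genes that fell in cHyper mTEClo, with Pcdhb9 as an exception that rose in cHyper mTEChi. Gpr20, an orphan G protein-coupled receptor gene, had 1.39, 1.76 and 1.41 CPM in WT mTEClo and 0.0685, 0.0690 and 0.0814 CPM in cHyper mTEClo, or 165 against 8 fragments. In mTEChi it had 2.61, 2.40 and 4.47 CPM in WT and 3.34, 3.14 and 3.41 CPM in cHyper, overlapping groups (log2 interaction 4.42, SE 0.47, edgeR adjusted p = 0.000365). Ms4a10, a tetraspan membrane protein gene, had 4.91, 5.995 and 5.68 against 0.251, 0.115 and 0.448 CPM in mTEClo and 2.23, 3.42 and 2.49 against 1.45, 1.87 and 1.52 CPM in mTEChi (log2 interaction 3.70, SE 0.45, edgeR adjusted p = 0.000901). The complement-related synaptic gene C1ql2 had 4.54, 3.38 and 4.03 against 0.297, 0.437 and 0.163 CPM in mTEClo and 2.06, 2.09999 and 2.24 against 2.19, 1.98 and 1.81 CPM in mTEChi (log2 interaction 3.56, SE 0.38, edgeR adjusted p = 0.000338). In all of these the mTEClo groups stood apart by more than the levels varied within a group. Trem2, a receptor of myeloid cells, had 19.3, 18.9 and 26.1 CPM in WT mTEClo and 3.13, 3.95 and 4.76 CPM in cHyper mTEClo, with 4.84, 4.81 and 4.58 against 4.15, 3.76 and 6.62 CPM in mTEChi (log2 interaction 2.46, SE 0.31, edgeR adjusted p = 0.000999). The summed levels of the 15 myeloid and dendritic markers overlapped between the mTEClo groups, at 33.1 to 37.6 CPM in WT and 31.1 to 49.6 CPM in cHyper. Taken singly, 2 of the 15 had a called fall in cHyper mTEClo and 0 a called rise. The part of such cells in the values of Trem2 was not tested. In mTEChi the markers summed to 546 to 735 CPM in WT and 533 to 593 CPM in cHyper. The interaction was called for 0 of them by edgeR, DESeq2 or limma-voom, with 2 at an unadjusted p under 0.05.

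Pcdhb9 (ENSMUSG00000051242, chromosome 18, 37400855 to 37403909) encodes a clustered protocadherin, a cell adhesion protein known from neurons. It had 7.13, 6.90 and 6.99 CPM in WT mTEClo and 4.98, 4.35 and 6.88 CPM in cHyper mTEClo, where the groups did not overlap but were not called apart (edgeR adjusted p = 0.401). Its mTEChi levels were 0.382, 0.260 and 0.216 CPM in WT and 0.966, 1.11 and 2.06 CPM in cHyper, or 36 against 142 fragments and a 4.49-fold rise (edgeR adjusted p = 0.00354). The interaction was called (log2 interaction 2.55, SE 0.43, edgeR adjusted p = 0.00694), and members of this cluster are similar in sequence, so reads may be divided among them.

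Otof, Krt33b and Pitpnm3 had higher levels in mTEChi than in mTEClo. Otof, a calcium sensor of hair cell synapses, had 1.68, 1.60 and 2.20 against 0.160, 0.276 and 0.448 CPM in mTEClo and 9.47, 10.3 and 12.7 against 10.5, 10.1 and 8.80 CPM in mTEChi (log2 interaction 2.56, SE 0.36, edgeR adjusted p = 0.00190). The hair keratin Krt33b had 0.543, 0.417 and 0.328 against 0, 0.0920 and 0.0814 CPM in mTEClo and 4.46, 4.29 and 5.20 against 6.12, 4.66 and 5.92 CPM in mTEChi (log2 interaction 3.22, SE 0.60, edgeR adjusted p = 0.0123). Pitpnm3 had 0.850, 0.926 and 1.41 against 0.160, 0.115 and 0.163 CPM in mTEClo and 4.14, 2.32 and 4.58 against 4.50, 2.72 and 3.29 CPM in mTEChi (log2 interaction 2.76, SE 0.52, edgeR adjusted p = 0.0129). In these 3 genes the fall was in mTEClo and the mTEChi groups overlapped. Well-counted genes with the same direction included Spock2 and Shisa4, called in both stages, and Cobll1, called in mTEClo alone. Spock2, an extracellular matrix proteoglycan, had 200.3, 149.8 and 149 against 28.8, 27.01 and 28.9 CPM in mTEClo and 156, 145 and 158 against 96.7, 104 and 88.6 CPM in mTEChi (log2 interaction 1.895, SE 0.16, edgeR adjusted p = 6.79e-05). Shisa4 had 129, 136 and 139 against 26.3, 26.9 and 29.9 CPM in mTEClo and 19.7, 19.2 and 19.3 against 9.61, 8.69 and 13.2 CPM in mTEChi (log2 interaction 1.39, SE 0.18, edgeR adjusted p = 0.00111). Cobll1 had 47.5, 44.4 and 40.1 against 9.23, 7.82 and 10.5 CPM in mTEClo and 19.1, 16.8 and 13.7 against 13.2, 12.2 and 12.996 CPM in mTEChi (log2 interaction 1.897, SE 0.20, edgeR adjusted p = 0.000329).

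The 4 genes called in opposite directions were Clca3a2, Mstn, Tnxb and Nckap1l. Clca3a2, of the calcium-activated chloride channel regulator family, had 415, 449.98 and 403 CPM in WT mTEClo and 239, 221 and 244 CPM in cHyper mTEClo, a fall of 1.80-fold. The mTEChi values were 225, 189 and 177 CPM in WT and 316, 276 and 266 CPM in cHyper, a rise of 1.45-fold (log2 interaction 1.39, SE 0.15, edgeR adjusted p = 0.000403). Mstn (myostatin), a secreted inhibitor of muscle growth, had 0.0709, 0.139 and 0.281 against 0.526, 0.345 and 0.652 CPM in mTEClo and 21.01, 26.3 and 26.6 against 12.03, 14.8 and 12.3 CPM in mTEChi (log2 interaction -2.67, SE 0.44, edgeR adjusted p = 0.00558). Its mTEClo values are 15 and 54 fragments. Tnxb, an extracellular matrix protein, had 0.543, 0.694 and 0.844 against 1.21, 2.21 and 1.91 CPM in mTEClo and 54.1, 47.7 and 57.2 against 30.3, 28.3 and 23.5 CPM in mTEChi (log2 interaction -2.34, SE 0.30, edgeR adjusted p = 0.000996). Nckap1l, a regulator of actin in blood cells, had 0.732, 0.903 and 0.844 against 1.07, 1.29 and 1.55 CPM in mTEClo and 37.8, 31.2 and 38.4 against 22.4, 23.9 and 21.1 CPM in mTEChi (log2 interaction -1.30, SE 0.23, edgeR adjusted p = 0.00856). In each of the 4 genes the WT and cHyper libraries did not overlap in either stage. The genes were picked for calls in both stages of these libraries, so this is not further evidence.

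Lists for specialised mTEC subsets and for tissue antigens had between 0 and 3 called members each. Of 19 tuft cell genes 2 were higher, the signalling regulator Rgs13 and the lipoxygenase gene Alox5 (10.5% of the list against 2.06% of all genes, median 0.58). With the replicate block 8 were called, against 1186 of all 28932 genes. It added Dclk1, Gnat3, Trpm5, Plcg2 and Pou2f3 with positive and Hpgds with a negative value. In mTEClo 10 of the 19 fell in cHyper and 1 rose, and in mTEChi 1 rose and 0 fell. Pou2f3, the factor that specifies tuft cells, had a log2 interaction of 0.68 (edgeR adjusted p = 0.0924, or 0.0257 with the block). Alox5 had 92.3, 88.9 and 111 against 48.9, 29.3 and 48.2 CPM in mTEClo and 15.8, 11.7 and 10.4 against 15.7, 10.6 and 14.8 CPM in mTEChi (log2 interaction 1.32, SE 0.29, edgeR adjusted p = 0.0321). The calls of Alox5 and Rgs13 ended without WT mTEClo 1 or 3, WT mTEChi 2 or 3, or cHyper mTEChi 1 or 3 (0.0521 to 0.0944) and without any one library except cHyper mTEClo 3 and cHyper mTEChi 2 (0.0507 to 0.131), by the edgeR adjusted p.

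Of 15 neuroendocrine genes 2 were higher, Scg2 and Pcsk1, and 1 lower, the receptor kinase Ret (20% of the list against 2.06% of all genes, median 0.39). With the replicate block 5 were called, against 1186 of all 28932 genes, adding Chgb (2.13 in the unblocked fit) and Syt1 (-0.45). Ret had 16.3, 14.9 and 18.1 against 24.3, 25.4 and 19.4 CPM in mTEClo and 32.7, 25.96 and 27.7 against 20.7, 22.6 and 18.3 CPM in mTEChi, higher in cHyper mTEClo and lower, without a call, in cHyper mTEChi (log2 interaction -0.98, SE 0.19, edgeR adjusted p = 0.0163). The granule protein Scg2 had 9.31, 4.77 and 7.69 against 1.71, 1.59 and 2.77 CPM in mTEClo and 20.99, 19.2 and 25.004 against 18.5, 15.1 and 15.8 CPM in mTEChi (log2 interaction 1.48, SE 0.34, edgeR adjusted p = 0.0372), and in CPM its 2 genotype differences were nearly equal. Pcsk1 encodes a prohormone convertase, with 2.20, 1.32 and 1.74 against 0.594, 0.598 and 0.977 CPM in mTEClo and 8.30, 8.53 and 6.53 against 10.7, 9.11 and 8.27 CPM in mTEChi (log2 interaction 1.58, SE 0.34, edgeR adjusted p = 0.0276). The call of Scg2 ended without any one library except WT mTEClo 2, cHyper mTEClo 3 and WT mTEChi 3 (0.0646 to 0.106), and that of Pcsk1 without WT mTEClo 1, cHyper mTEClo 1 or 2, WT mTEChi 2 or 3, or cHyper mTEChi 1 or 2 (0.0512 to 0.0766), by the edgeR adjusted p.

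**Figure D3:**
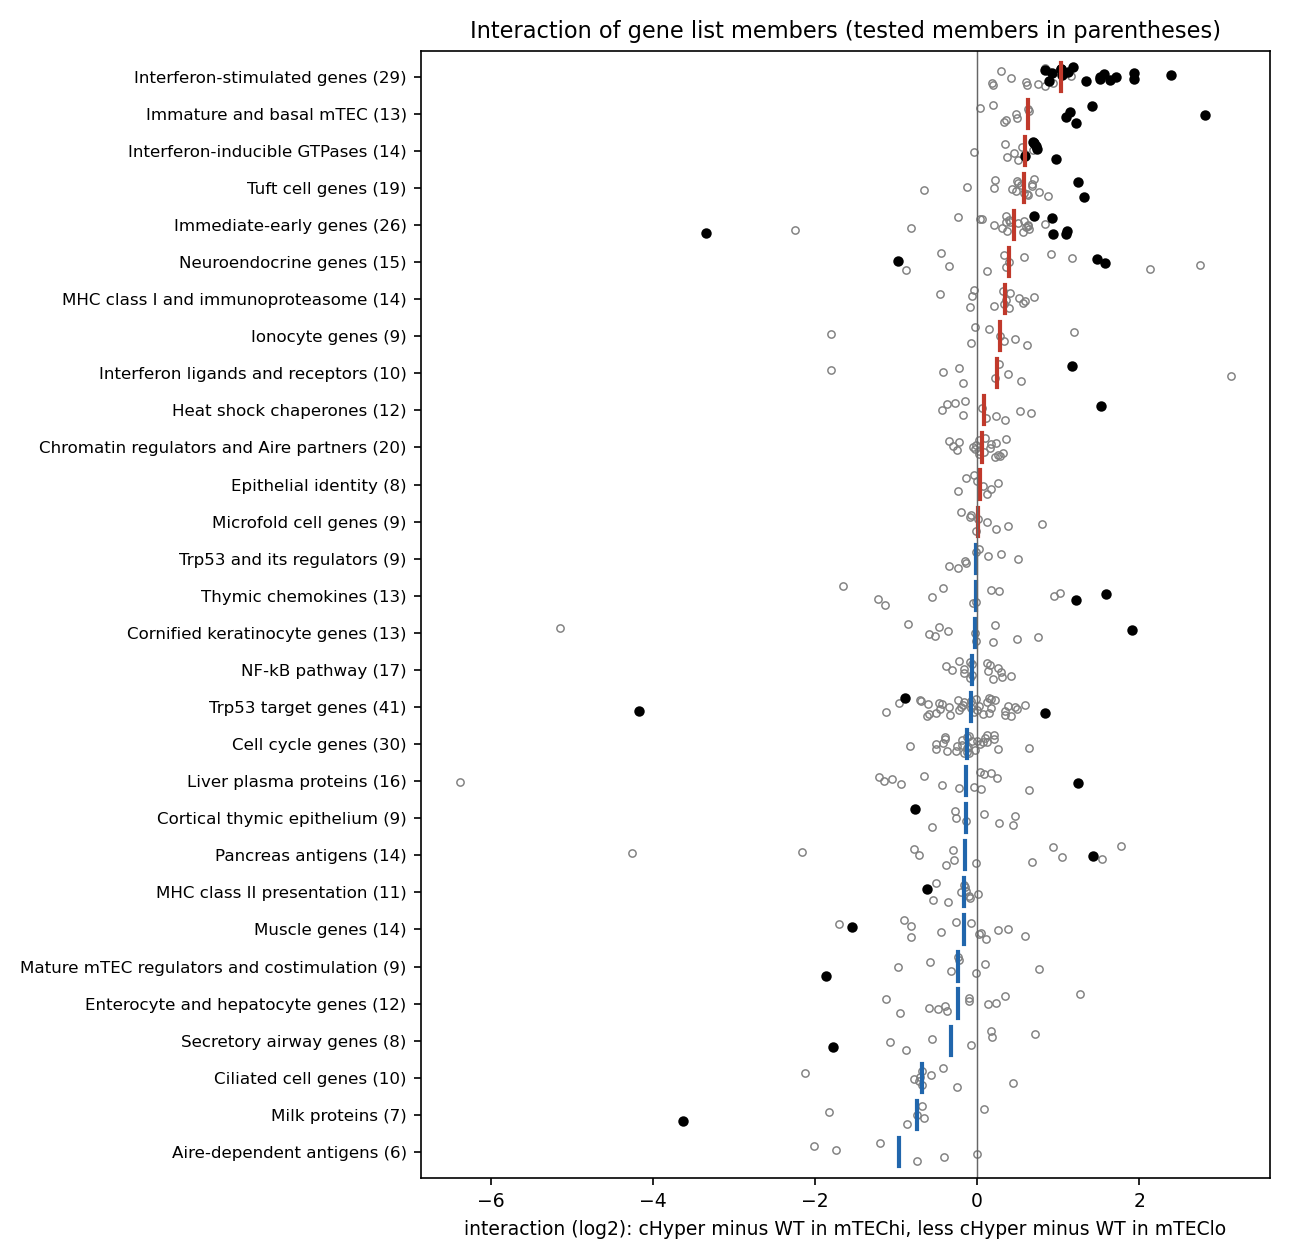
Log2 interaction (horizontal axis) of the tested members of 30 gene lists, in order of their medians (coloured ticks). Filled points are called members and open points are not called. Interferon-stimulated genes lie highest with a median of 1.03, and Aire-dependent antigens lowest with -0.96. The latter include genes close to the detection limit in mTEClo.

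Antigen genes of other tissues gave single calls in both directions. Crp, a liver acute-phase protein, was the 1 of 16 liver genes called, with 154, 113 and 132 against 68.2, 60.4 and 69.8 CPM in mTEClo and 28.1, 26.04 and 23.99 against 34.5, 29.5 and 27.7 CPM in mTEChi (log2 interaction 1.24, SE 0.18, edgeR adjusted p = 0.00184). Iapp (islet amyloid polypeptide), the 1 of 14 pancreas genes, had 15.02, 14.7 and 16.6 against 4.48, 3.98 and 3.09 CPM in mTEClo and 34.3, 54.1 and 47.2 against 31.2, 35.5 and 25.3 CPM in mTEChi (log2 interaction 1.43, SE 0.25, edgeR adjusted p = 0.00881). For Iapp the fall in CPM was larger in mTEChi, so the sign on the linear scale is the reverse. Krtdap, of differentiating keratinocytes, the 1 of 13 cornified genes (2 with the block, which added Lce1j), had 68.4, 79.9 and 68.2 against 19.5, 17.5 and 24.3 CPM in mTEClo and 44.1, 32.9 and 21.5 against 34.7, 33.8 and 36.1 CPM in mTEChi (log2 interaction 1.91, SE 0.28, edgeR adjusted p = 0.00226). In all 3 genes the mTEClo groups stood apart.

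Further single calls had lower interactions and were near the threshold. The airway secretory protein Bpifb1 (1 of 8 secretory genes) had a log2 interaction of -1.78, a call that ended without WT mTEClo 1, WT mTEChi 2 or 3, or cHyper mTEChi 2 or 3 (edgeR adjusted p = 0.0513 to 0.0675). The muscle myosin Myh8 (1 of 14 muscle genes, or 2 with the block, which added Ttn) had -1.54, a call that ended without WT mTEClo 2 or 3, cHyper mTEClo 1 or 2, WT mTEChi 1, 2 or 3, or cHyper mTEChi 2 or 3 (0.0601 to 0.0851). Tbata (1 of 9 cortical epithelial genes) had -0.76, a call that ended without WT mTEClo 2 or 3, cHyper mTEClo 1 or 3, WT mTEChi 1 or 2, or cHyper mTEChi 3 (0.0548 to 0.0764). Lists with 0 calls by edgeR were those of cell cycle (30 genes), chromatin regulators and Aire partners (20), NF-kB (17), microfold cells (9), enterocytes and hepatocytes (12), ciliated cells (10), ionocytes (9) and epithelial identity (8). Their counts with an unadjusted p under 0.05 were 0, 3, 4, 1, 2, 2, 0 and 0, those called by DESeq2 were 0, 0, 1, 0, 2, 2, 0 and 0, and those called by limma-voom were 0, 0, 0, 0, 0, 1, 0 and 0. The replicate block added Vil1 among the enterocyte genes and Pifo among the ciliated ones. B cell, endothelial, erythroid and sex-linked lists also had 0 calls by edgeR and limma-voom, while DESeq2 called 0, 0, 1 and 0 of their genes and 1, 0, 2 and 0 had an unadjusted p under 0.05.

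Read as a difference in maturation, the interaction mostly marked smaller stage differences in cHyper than in WT. The step from mTEClo to mTEChi was called for 69.5% of genes in WT (40.2% higher and 29.4% lower in mTEChi) and for 64.5% in cHyper (38.7% higher and 25.8% lower). The 327 higher interactions had a median stage difference of -1.56 (log2) in WT and -0.40 in cHyper, and 175 of these genes were lower in mTEChi in both genotypes, 50 in WT alone. Another 46 were higher in mTEChi in both genotypes, 27 in cHyper alone, and 29 were called in opposite directions. The 268 lower interactions had a median of 3.15 in WT and 1.51 in cHyper, with 182 genes higher in mTEChi in both genotypes, 47 in WT alone, 7 lower in both, 14 lower in cHyper alone and 18 in opposite directions. Over all genes the medians were 0.12 and 0.13.

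Aire differed between stages by 7.07 (log2) in WT and 5.21 in cHyper, and Irf7 by -3.09 and -1.14. Krt14 differed by -3.19 in WT and -2.09 in cHyper. Cpz was higher in mTEChi in WT (7.36) and lower there in cHyper (-0.9998), as was Eda2r (2.48 and -1.69). The interferon-stimulated list had a median stage difference of -2.08 in WT and -1.14 in cHyper, with 26 of 29 members lower in mTEChi in WT and 22 in cHyper. These stage differences and the interaction share their libraries, so they describe the same values.

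**Figure D4:**
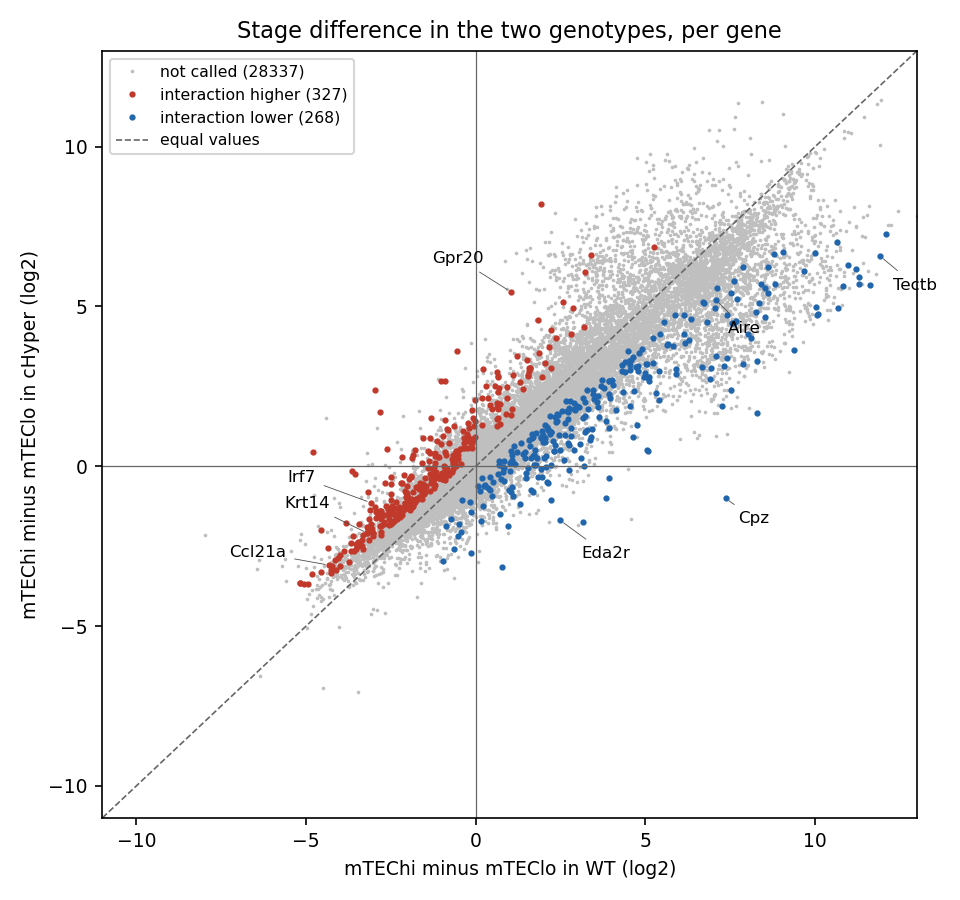
Stage difference per gene (log2 of mTEChi against mTEClo) in WT (horizontal axis) and in cHyper (vertical axis), with the dashed line for equal values. Red points are the 327 higher and blue points the 268 lower interactions, grey the 28337 genes not called. The red points lie above the line, mostly at negative values, and the blue points below it, mostly at positive values.

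The interaction is defined on the log2 scale, and for most called genes the difference of differences in CPM had the same sign. This held for 554 of the 595, while 41 had the reverse sign, 23 of the higher and 18 of the lower interactions, among them Iapp, Scg2, Csn1s2a and Hbb-y. With replicates 1 and 2 only, 282 genes were called, of which 236 were among the 595. Replicate 3 of every group differs from replicates 1 and 2 in run scheme and depth, and these were balanced over the groups.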

How the data were processed

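RNA of sorted mTEC was sequenced as stranded paired-end libraries, per the labels' protocols. The authors deposited whole-number fragment counts per gene. The submitters' processing notes name TopHat2 2.1.1, SAMtools 1.9, featureCounts, Subread 2.0.1 and mm10. The sources used here do not give the annotation, strand setting or filters. Runs of replicates 1 and 2 were combined before deposit, so 20 samples give 12 columns, and 12 TPM columns were not used.

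Counts were fitted with edgeR 4.0.16 in R 4.3.3 (TMM, filterByExpr by group, 12 libraries, group means, quasi-likelihood F test). The interaction contrast was adjusted by Benjamini-Hochberg over 28932 genes and called under 0.05. The 22878 other genes had too few fragments. Alternatives were limma 3.58.1 (voom), DESeq2 1.42.0, other scalings and filters, a replicate block and leaving libraries out.

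Replicate numbers paired the samples. The deviations of all 18 same-numbered pairs correlated, with r from 0.141 to 0.397 over 20925 genes averaging 1 CPM or more, and 12 of 12 libraries correlated best with their own number. The numbers come from the labels.

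The naming rule took called genes averaging 1 CPM or more that stayed called without any one library. It left out predicted genes, pseudogenes, antigen receptor segments and repeated symbols, but kept close copies such as Apol9a and Apol9b. From the genes kept it chose the 12 largest interactions each way and up to 4 per pattern and direction. It added Trp53, Cdkn1a, Mdm2, Aire, Fezf2 and up to 4 genes of each list by p. Other named members of lists and families were chosen after their values were seen. Members and lists were chosen with earlier results of these data known. Promoter sequences are RefSeq's (GRCm38.p6), matched by symbol. Intervals cover counting error only.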

Additional observations from a re-analysis of the deposited data

Results flagged for a closer look

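The genotype effect differed between the stages for 327 genes with a higher and 268 genes with a lower interaction, by the edgeR test of the difference itself. For 4 genes the effects were called in opposite directions, with log2 interactions of -2.67 for Mstn, 1.39 for Clca3a2, -1.30 for Nckap1l and -2.34 for Tnxb. Groups of 3 libraries are too small for a search for single outlying libraries.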

How the results depend on the processing

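The counts of called, higher and lower interactions were 1103, 571 and 532 without a filter on low counts, 1425, 643 and 782 by DESeq2, 1186, 684 and 502 with the replicate block, and 282, 161 and 121 with replicates 1 and 2 only. Leaving out 1 library at a time gave 354 to 629 called, 193 to 316 higher and 152 to 348 lower, and 269 of the 595 genes (45.2%) were called in all 12 of these fits. Other scalings gave 283 higher and 303 lower (DESeq2 size factors) and 263 higher and 291 lower (library totals), limma-voom 287 and 218, and a minimum of 1 CPM 314 and 340. No called gene changed sign in any of the 20 alternatives. Of 75 named genes with a called interaction 51 were called under all 20, and the replicate block ended none of these calls. Depth in WT mTEClo limits the 119 lower genes with a mean under 1 CPM there, and with 3 libraries a group a gene without a call is not shown to respond alike in both stages.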

Other observations

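Gene groups assembled after their values had been seen also had called interactions. Of 12 contractile genes of smooth muscle 4 were higher (Acta2, Tagln, Myl9 and Pdlim3) and 0 lower, against 1.13% and 0.926% of all genes. The median of the 12 was 0.57. The genotype difference was called in neither stage for Acta2, Tagln and Myl9, and in mTEChi alone for Pdlim3. Acta2, smooth muscle actin, had 769, 839 and 712 against 529.7, 719.6 and 511 CPM in mTEClo and 56.1, 43.9 and 38.1 against 57.7, 106 and 78.1 CPM in mTEChi (log2 interaction 1.21, SE 0.29, edgeR adjusted p = 0.0436). Tagln, an actin-binding protein, had 1459, 1336 and 1241 against 888, 1012 and 751 CPM in mTEClo and 43.98, 46.4 and 21.04 against 53.9, 79.4 and 76.9 CPM in mTEChi (log2 interaction 1.52, SE 0.33, edgeR adjusted p = 0.0300). Each of the 4 calls ended when certain single libraries were left out, with edgeR adjusted p = 0.0509 to 0.105 for Acta2 without WT mTEClo 1, 2 or 3, cHyper mTEClo 1 or 3, WT mTEChi 2 or 3, or cHyper mTEChi 2 or 3, 0.0516 to 0.0836 for Tagln without WT mTEClo 1, cHyper mTEClo 3, or cHyper mTEChi 2 or 3, 0.0559 to 0.0929 for Myl9 without WT mTEClo 1 or 2, cHyper mTEClo 1, 2 or 3, WT mTEChi 1 or 3, or cHyper mTEChi 2 or 3, and 0.0510 for Pdlim3 without cHyper mTEClo 2.

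Of 12 Notch pathway genes, which act in signalling between neighbouring cells, 2 were higher and 0 lower, against 1.13% and 0.926% of all genes. The median of the 12 was 0.41. The called genes were the ligand Jag2 and the receptor Notch3. The genotype difference was called in both stages for Jag2 and in neither for Notch3. Jag2 had 236, 259 and 218 against 361, 327 and 267 CPM in mTEClo and 22.9, 25.6 and 22.05 against 48.3, 55.3 and 56.1 CPM in mTEChi (log2 interaction 0.75, SE 0.17, edgeR adjusted p = 0.0329). Notch3 had 82.6, 79.1 and 84.02 against 65.5, 59.5 and 74.2 CPM in mTEClo and 15.7, 15.3 and 15.7 against 19.9, 19.1 and 21.3 CPM in mTEChi (log2 interaction 0.67, SE 0.14, edgeR adjusted p = 0.0189). The calls ended without WT mTEClo 1 or 2, cHyper mTEClo 2, WT mTEChi 1 or 3, or cHyper mTEChi 2 or 3 (0.0614 to 0.0891) and without cHyper mTEClo 2, WT mTEChi 2, or cHyper mTEChi 1 (0.0504 to 0.0577), by the edgeR adjusted p.

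Among genes of lymphocyte activation, Rasgrp1, a Ras activator of T cells, had 5.41, 5.39 and 4.60 against 16.7, 15.04 and 13.8 CPM in mTEClo and 18.7, 18.01 and 13.3 against 20.6, 19.003 and 17.3 CPM in mTEChi (log2 interaction -1.37, SE 0.21, edgeR adjusted p = 0.00333). Irf4, a factor of activated lymphocytes, had 20.1, 22.7 and 19.5 against 44.8, 53.5 and 54.5 CPM in mTEClo and 123, 127 and 115 against 166, 161 and 178 CPM in mTEChi (log2 interaction -0.82, SE 0.14, edgeR adjusted p = 0.00739). Ctla4, an inhibitory receptor of T cells, had 0.0472, 0.139 and 0.0938 against 0.388, 0.345 and 0.326 CPM in mTEClo and 6.09, 7.19 and 7.25 against 5.73, 5.58 and 7.61 CPM in mTEChi (log2 interaction -2.01, SE 0.45, edgeR adjusted p = 0.0328). The call of Ctla4 ended without WT mTEClo 1 or 3, cHyper mTEClo 1 or 2, WT mTEChi 2 or 3, or cHyper mTEChi 1 or 2 (edgeR adjusted p = 0.0617 to 0.109). The sum of the 14 thymocyte markers was also higher in cHyper mTEClo, where 0 of them had a called genotype difference. In mTEChi that sum reached 104 CPM in WT and 132 CPM in cHyper, below Irf4 alone in every library. In mTEClo Irf4 lay below the sum. The part of thymocytes in the values of these genes was not tested.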
